A study of Oryza sativa with 4 samples.

Results

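The segment of rice chromosome 7 between 17 and 22 Mb (IRGSP-1.0 coordinates) holds 353 of the 31414 genes, and 432 of the 37972 transcripts, for which leaf expression was measured. Its members are all annotated transcripts whose start lies between these positions, except those of 1 gene that was left out. The segment was chosen by measured values of the comparison described here: in leaves it carried several genes that were expressed in only 1 of the 2 groups of plants. A gene was counted as on in 1 group only when its FPKM, summed over its transcripts, was under 0.5 in both libraries of a group and at least 1 in both libraries of the other. FPKM are levels scaled for the length of a transcript and for the number of mapped reads of a library. By this count 6 genes of the segment, 1.70%, were on in 1 group only, 2 of them in OsNAC14OX and 4 in NT. All values of the segment are therefore given as a description, including the calls of a linear model further below.

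The series compared 2 leaf RNA libraries of OsNAC14OX rice with 2 of NT rice to find genes whose expression differs when OsNAC14, a transcription factor of the NAC family, is overexpressed. OsNAC14OX plants carry PGD1:OsNAC14, a transgene in which the constitutive PGD1 promoter drives OsNAC14 in the whole plant. They were made by Agrobacterium transformation of the cultivar Nakdong, and the study's text gives line 11 in the T4 generation, so the group stands for 1 transformed line. NT plants are non-transgenic Nakdong. All plants were germinated on MS medium, moved to soil pots of 3 plants and grown in a greenhouse without drought. The methods give an age of 2 weeks, whereas the sample labels give 20 days and, for all 4 libraries, the cultivar as Nipponbre (their spelling). The sources used here do not give how many plants went into a library, or whether both OsNAC14OX libraries come from sister plants. The spread between libraries of a group may thus be technical. The NT library names, unlike those of OsNAC14OX, contain a year-like number of unknown meaning. If it marks a separate growth or sequencing batch, that batch cannot be told apart from the overexpression.

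Rice chromosomes carry many genes in tandem arrays, which arise when a gene is copied next to itself. Receptor-like kinases, membrane proteins that read signals outside the cell and pass them on by phosphorylation, are among the largest plant families arranged in this way. Such copies are similar in sequence, so that reads of one may be assigned to another. The reads were mapped to the Nipponbare reference genome, and an FPKM counts only reads that match its gene models.

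OsNAC14 itself had 16.4 and 16.3 FPKM in OsNAC14OX leaves, against 3.16 and 3.70 FPKM in NT leaves, as the labels require. All 15 genes for the small subunit of Rubisco or for chlorophyll a/b-binding proteins were on in every library, with summed levels of 15302 and 18233 FPKM in OsNAC14OX leaves and of 13395 and 12641 FPKM in NT leaves. The root gene RCc3 (Os02g0662000) was also read in every library, at 182 and 369 FPKM in OsNAC14OX and at 391.6 and 389.7 FPKM in NT, and its part in the results below was not tested. Low values moved in whole steps of 1 read for 92.5 to 93.5% of low single-transcript genes, within 0.15 read. From these steps the libraries were estimated to hold 36300000 and 33100000 mapped reads in OsNAC14OX and 36900000 and 56400000 in NT. An FPKM of 0.5 then stands for 18.1 and 16.6 reads per kilobase of transcript in the OsNAC14OX libraries and for 18.5 and 28.2 reads in the NT libraries.

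Most genes of the segment were expressed in both groups. Of its 353 genes, 264 were on (FPKM of at least 1) in all 4 libraries, 28 were under 0.5 in all 4, 6 were on in 1 group only and 55 fell between these classes. The 1.70% on in 1 group only compare with 0.379% of the genes of all chromosomes (119 of 31413) and with 0.557% of those of the rest of chromosome 7 (11 of 1976). Since the segment was chosen by this share, nothing is read from the difference. By direction, 2 of the 353 genes were on in OsNAC14OX only, beside 0.172% of all genes and 0.405% of the rest of the chromosome, and 4 were on in NT only, beside 0.207% of all genes and 0.152% of the rest of the chromosome. Outside the segment chromosome 7 thus had 8 genes on in OsNAC14OX only and 3 in NT only. Other stretches of the genome were richer still in such genes, with 12 of 208 genes between 21 and 24.5 Mb of chromosome 11 (7 on in OsNAC14OX only and 5 in NT only) and 11 of 401 between 5 and 17 Mb of chromosome 12 (2 and 9).

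**Figure D1:**
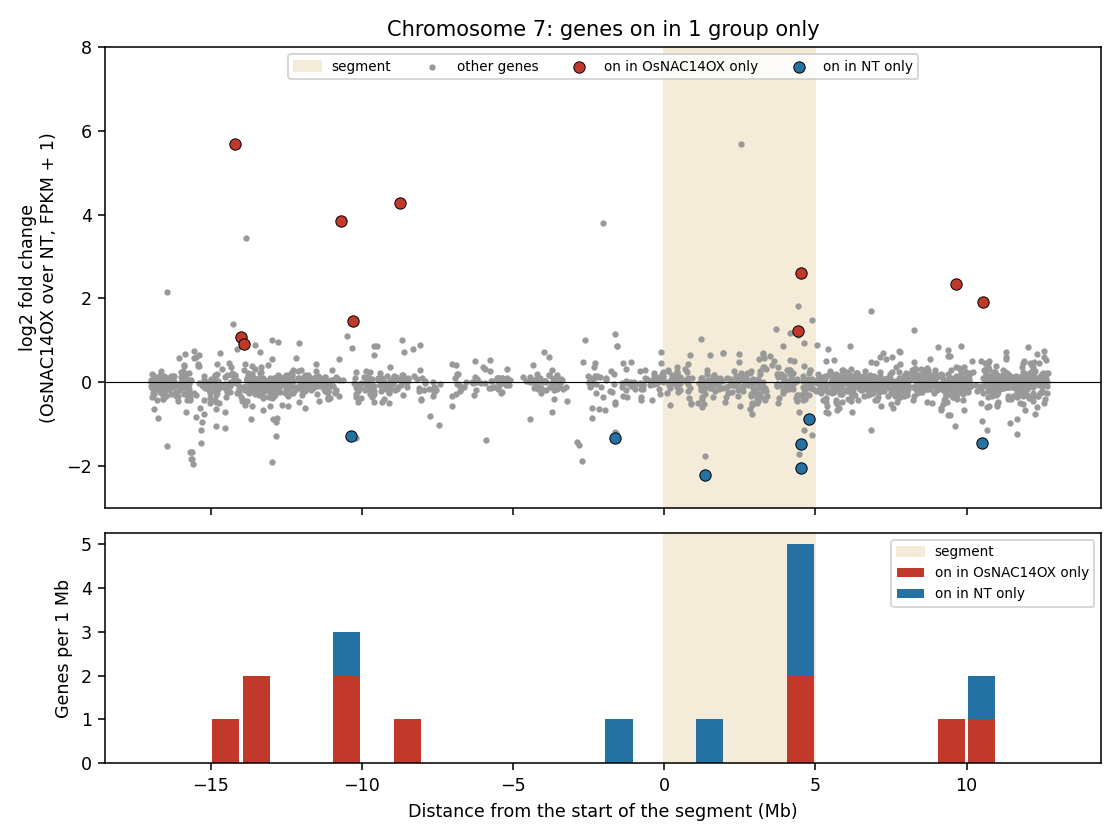
Genes along chromosome 7 by distance from the start of the segment (shaded, Mb). Upper panel, log2 fold change of each expressed gene (OsNAC14OX over NT, FPKM + 1) with genes on in OsNAC14OX only in red and in NT only in blue; lower panel, number of such genes per 1 Mb. The last 1 Mb of the segment holds 5 of them among its 94 genes, the highest number in any 1-Mb bin of the chromosome. Per gene, the bin between 6 and 7 Mb of the chromosome is richer, with 3 among 43. The grey point at 5.68 in the segment is Os07g0511400.

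The 6 genes lay in 2 places. A single one, Os07g0492300, lay in the second 1 Mb of the segment, and the next, Os07g0541900, began 3057 kb further on with 229 genes between them. From there 5 of the 34 genes within 384 kb were on in 1 group only, beside 0.379% of all genes. This stretch was drawn from the first to the last of the 5 genes, so its edges depend on the genes it counts. Counted in bins of 0.5 Mb, 1 gene fell between 18 and 18.5 Mb, 1 between 21 and 21.5 Mb and 4 between 21.5 and 22 Mb, and the other bins of the segment held 0. Outside the segment, 7 of 25 bins of 1 Mb held at least 1 such gene. The fullest of these, between 6 and 7 Mb, held 3 of 43 genes, beside 5 of 94 in the last 1 Mb of the segment. All 6 have a single annotated transcript, and 3 of them are described only as hypothetical or conserved hypothetical genes.

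**Figure D2:**
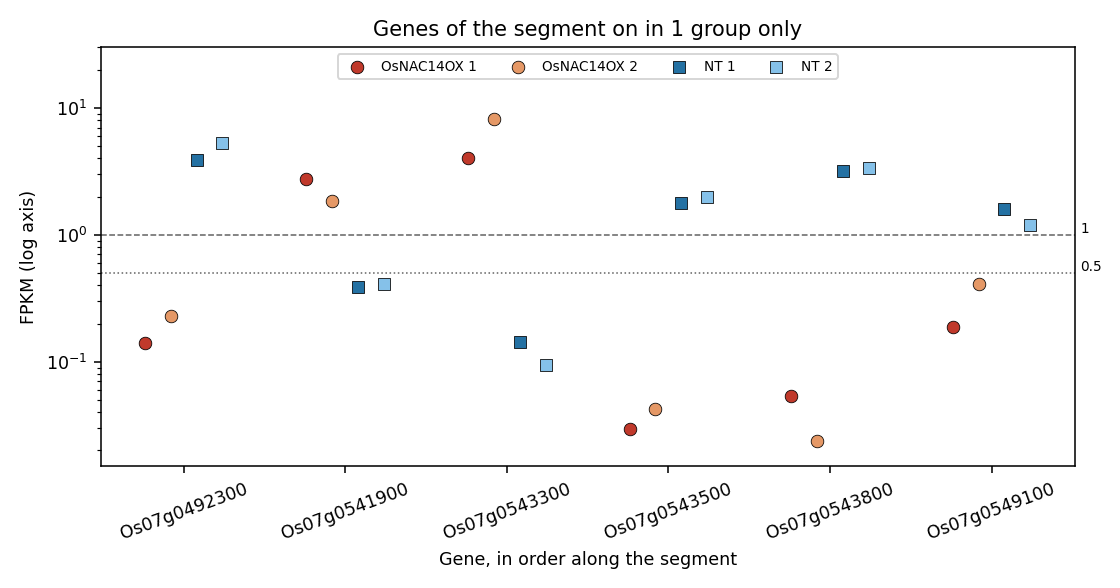
FPKM (log axis) of the 6 genes of the segment on in 1 group only, in their order along the chromosome, for each OsNAC14OX library (circles) and each NT library (squares). The dashed line marks an FPKM of 1 and the dotted line an FPKM of 0.5; in each gene 1 group lies above the first and the other below the second.

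Os07g0492300 (chr7:18357750-18358722), a hypothetical protein gene, had 0.140 and 0.228 FPKM in OsNAC14OX leaves, against 3.85 and 5.28 FPKM in NT leaves. These levels correspond to about 4 and 6 reads in OsNAC14OX and to 113 and 238 reads in NT, and the groups were far apart. Its log2 fold change of FPKM + 1 was -2.21 (SE 0.16, n = 2 libraries per group), a scale on which the change of a low gene is understated. The gene directly before it, Os07g0492100 (chr7:18338216-18351636), encodes a DNA helicase of the UvrD/REP type, an enzyme that unwinds DNA strands. It was on in both groups, with 1.92 and 2.17 FPKM in OsNAC14OX, against 9.05 and 9.73 FPKM in NT, 4.59-fold higher in NT by the group means (log2 fold change -1.73, SE 0.11). Both neighbours were thus lower in OsNAC14OX in each pair of libraries. Their outer neighbours differed less or in the other direction. Os07g0492000, for nucleoside diphosphate kinase I, which balances the cell's nucleotide pools, had 519 and 532 FPKM in OsNAC14OX and 640 and 633 FPKM in NT, a smaller decrease without overlap. On the other side Os07g0492966, for an ankyrin repeat protein, had 0.698 and 0.215 FPKM in OsNAC14OX and 0.0877 and 0.114 FPKM in NT.

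At the far end of the segment, 9 genes in a row, from Os07g0541900 to Os07g0543800, spanned 114 kb and had OsNAC14OX and NT levels that did not overlap, 4 of them higher and 5 lower in OsNAC14OX. This run was picked out after its values had been seen. Of all 25810 genes that reached an FPKM of 1 in 2 or more libraries, the groups did not overlap in 42.8%, and of those of the segment in 151 of 291. On the scale of FPKM + 1 the change was at least 2-fold in 7 of the 9, and the median size of the log2 fold change was 1.48. Such a change was reached by 2.28% of the 25810 genes and by 16 of the 291 of the segment. The following 25 genes, up to Os07g0549100, had a median size of 0.16, and 1 of the 23 of them with a fitted change reached 2-fold on this scale. It was Os07g0546100 (-1.15), whose NT libraries lay far apart, at 3.06 and 26.2 FPKM. Os07g0549100 itself, a low gene, stayed under 2-fold on this scale (-0.88). The groups did not overlap in 12 of these 25 genes. Of the 9 genes before the run, 6 had groups that did not overlap. The 5 of these 9 with a fitted change had a median size of 0.31, and 0 reached 2-fold.

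**Figure D3:**
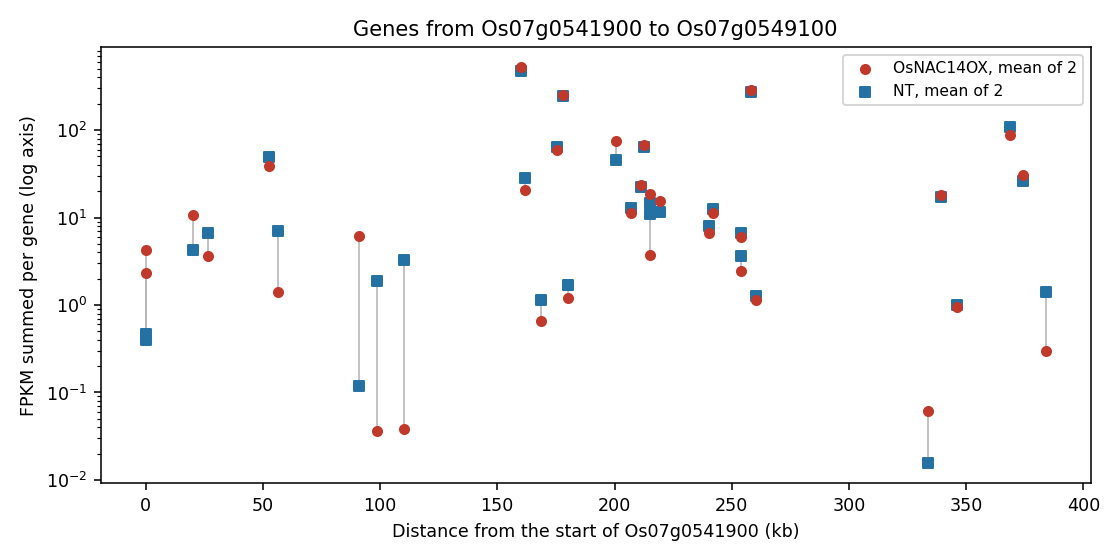
Mean FPKM summed per gene (log axis) in OsNAC14OX (red circles) and NT (blue squares), 2 libraries each, of the 34 genes from Os07g0541900 to Os07g0549100, by distance in kb from the start of the first; a grey line joins both means of a gene. The largest separations lie within the first 114 kb, after which most pairs of points nearly coincide.

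The run begins with receptor-like kinases. Os07g0541900 (chr7:21414426-21419296), similar to KI domain interacting kinase 1, had 2.76 and 1.84 FPKM in OsNAC14OX leaves, against 0.391 and 0.413 FPKM in NT leaves. It was 5.73-fold higher in OsNAC14OX by the means (log2 fold change 1.26, SE 0.18), and the NT libraries still held about 29 and 47 of its reads, so that it was low rather than silent there. The hypothetical gene Os07g0541850 before it was under 0.5 in all libraries, at 0.388 and 0.212 FPKM in OsNAC14OX and 0.133 and 0.335 FPKM in NT. The hypothetical gene Os07g0542067 overlaps 4669 bases of Os07g0541900 and had 5.06 and 3.35 FPKM in OsNAC14OX, against 0.395 and 0.535 FPKM in NT. It missed the count because 1 NT library lay above 0.5. The labels describe strand-specific libraries and the methods a kit that does not keep the strand, so the reads of these overlapping genes cannot be told apart with certainty. Summed, both genes had 7.82 and 5.20 FPKM in OsNAC14OX and 0.786 and 0.948 FPKM in NT.

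The next pair of kinases moved in opposite directions. Os07g0542400, described as a receptor protein kinase similar to RK20-1, had 10.5 and 10.7 FPKM in OsNAC14OX, against 4.44 and 4.14 FPKM in NT. Its neighbour Os07g0542600, with the same RK20-1 description, had 3.43 and 3.88 FPKM in OsNAC14OX and 6.54 and 6.68 FPKM in NT. The levels of both were tight within each group. Because the 2 genes carry the same description, reads may be split between them, and their separate levels are uncertain. Directly after them Os07g0543000, similar to a helix-loop-helix protein, had 38.3 and 40.5 FPKM in OsNAC14OX and 48.9 and 49.1 FPKM in NT, a small difference.

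Then follow 2 genes described as beta-amylase, the enzyme that cuts maltose from starch, again with opposite signs. Os07g0543100 (chr7:21470796-21473327) had 1.496 and 1.31 FPKM in OsNAC14OX leaves, against 6.43 and 7.44 FPKM in NT leaves (log2 fold change -1.68, SE 0.13). Os07g0543300 (chr7:21505639-21506607), 32.3 kb further on, had 4.00 and 8.24 FPKM in OsNAC14OX, against 0.144 and 0.0937 FPKM in NT. It was read by about 81 and 154 reads in OsNAC14OX and by 3 reads in each NT library, and its log2 fold change was 2.63 with a standard error of 0.33, since the OsNAC14OX libraries differed from each other. Added together, the pair gave 5.49 and 9.55 FPKM in OsNAC14OX and 6.57 and 7.53 FPKM in NT, sums that overlap. The transcripts are 2061 and 741 bases long, so this sum of length-scaled levels is not a sum of reads. Os07g0543100 was read by about 102 and 82 reads in OsNAC14OX and by 447 and 793 in NT. Whether reads are shared between these genes was not tested. Another beta-amylase gene elsewhere in the segment, Os07g0495900, had 54.2 and 56.6 FPKM in OsNAC14OX and 57.6 and 55.8 FPKM in NT.

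The next 2 genes were on in NT only. Os07g0543500 (chr7:21513061-21517031) encodes a protein with an armadillo-like helical domain, a repeat fold that often binds other proteins, and had 0.0292 and 0.0426 FPKM in OsNAC14OX, against 1.78 and 1.99 FPKM in NT. The conserved hypothetical gene Os07g0543800 (chr7:21524544-21528191) had 0.0539 and 0.0236 FPKM in OsNAC14OX, against 3.21 and 3.38 FPKM in NT. In reads, the first had about 3 and 4 in OsNAC14OX and 186 and 319 in NT, and the second 5 and 2 in OsNAC14OX and 304 and 489 in NT. They lie side by side with Os07g0543300, which differed in the other direction, with 6.45 kb between the first pair and 7.51 kb between the second and no other gene among the 3. Their log2 fold changes were -1.46 (SE 0.11) and -2.03 (SE 0.11).

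The gene after the run, Os07g0544800, encodes oxygen-evolving enhancer protein 3, a subunit at the water-splitting side of photosystem II. It had 507 and 542 FPKM in OsNAC14OX and 422 and 533 FPKM in NT, levels that overlap. The last gene on in 1 group only, the conserved hypothetical Os07g0549100 (chr7:21798282-21798902), stood alone among genes of similar level in both groups. It had 0.189 and 0.409 FPKM in OsNAC14OX, against 1.59 and 1.19 FPKM in NT, from about 3 and 6 reads in OsNAC14OX and 26 and 30 reads in NT. Its neighbours Os07g0548900, a conserved hypothetical gene with 30.6 and 30.9 FPKM in OsNAC14OX and 26.9 and 25.5 FPKM in NT, and Os07g0549200, for a pentatricopeptide repeat protein with 9.52 and 9.16 FPKM in OsNAC14OX and 10.5 FPKM in both NT libraries, were close between groups.

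Os07g0549100, Os07g0541900 and Os07g0543500 lay closest to the thresholds on the inside, and Os07g0542067 closest on the outside. After it came Os07g0489200, a UDP-glucosyltransferase gene with 0.714 and 0.980 FPKM in OsNAC14OX and 0.473 and 0.613 FPKM in NT, and Os07g0489950, similar to cytokinin-O-glucosyltransferase 2, with 0.434 and 0.363 FPKM in OsNAC14OX and 0.713 and 0.849 FPKM in NT. The thresholds left out the gene with the largest change of the segment. Os07g0511400 (chr7:19533864-19534577), a hypothetical protein gene, had 95.8 and 109.2 FPKM in OsNAC14OX leaves, against 0.911 and 1.12 FPKM in NT leaves, 101-fold higher by the means (log2 fold change 5.70, SE 0.12). About 1844 and 1940 reads stood behind it in OsNAC14OX and 18 and 34 in NT, so NT leaves held a low but measurable level. Its neighbours differed far less, by small increases without overlap. Os07g0511000, a conserved hypothetical gene, had 18.98 and 19.5 FPKM in OsNAC14OX and 17.6 and 17.1 FPKM in NT, and Os07g0511500, for a RING-type zinc finger protein, had 7.09 and 7.05 FPKM in OsNAC14OX and 6.11 and 5.74 FPKM in NT.

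Single transcripts gave a wider picture than genes. In the segment 10 of 432 transcripts, 2.31%, were on in 1 group only, 2 in OsNAC14OX and 8 in NT, beside 0.464% of all transcripts and 0.722% of those of the rest of chromosome 7. For 4 of the 10 the gene itself was on in both groups, and in all 4 the transcript was on in NT only. The values of 3 of them are given here.

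The UDP-glucosyltransferase gene Os07g0503300, of a family that attaches sugars to hormones and other small molecules, has 2 transcripts. Its second transcript had 0.0690 and 0.00477 FPKM in OsNAC14OX, against 7.26 and 4.49 FPKM in NT, and its first had 6.41 and 9.11 FPKM in OsNAC14OX and 2.40 and 6.11 FPKM in NT. The sums, 6.48 and 9.12 FPKM in OsNAC14OX and 9.66 and 10.6 FPKM in NT, were closer. In the glycoside hydrolase family 17 gene Os07g0510200, a family that includes beta-1,3-glucanases, the second transcript was near 0 in both OsNAC14OX libraries, against 2.47 and 8.24 FPKM in NT. The gene as a whole had 16.8 and 17.8 FPKM in OsNAC14OX and 21.6 and 22.8 FPKM in NT.

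In the kinase gene Os07g0542400 both transcripts differed between groups, in opposite directions. The first had 10.5 and 10.7 FPKM in OsNAC14OX, against 2.50 and 2.55 FPKM in NT, and the second was near 0 in OsNAC14OX, against 1.93 and 1.60 FPKM in NT. The sum stayed higher in OsNAC14OX (log2 fold change 1.13, SE 0.10). The division of reads between transcripts of a gene is an estimate of the program that made the FPKM, and its error is not given in the files.

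**Figure D4:**
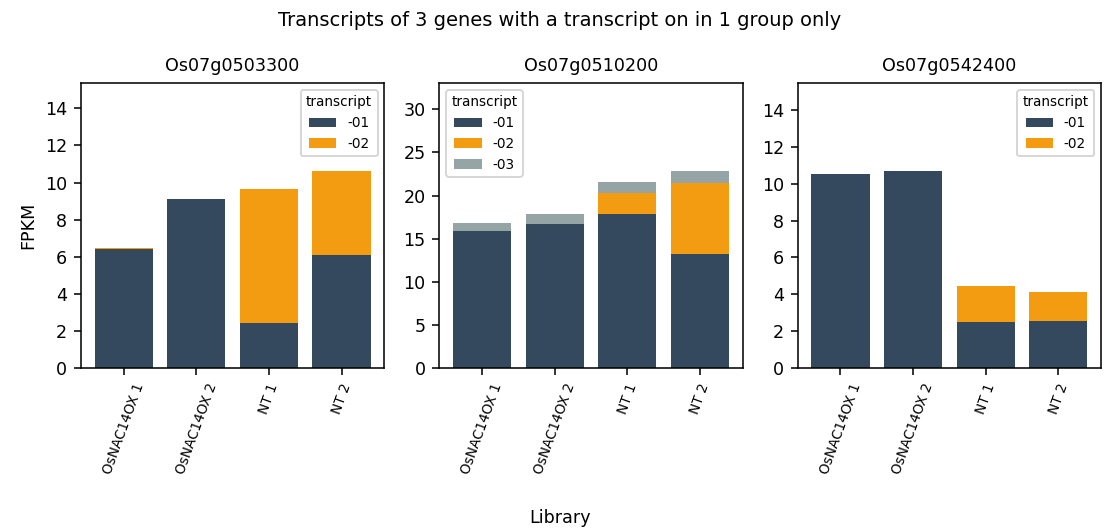
FPKM of each transcript, stacked, for 3 genes with a transcript on in NT only while the gene was on in both groups, with the OsNAC14OX libraries left of the NT libraries. The second transcripts of Os07g0503300, Os07g0510200 and Os07g0542400 are visible in NT and nearly absent in OsNAC14OX, and the summed height differs most in Os07g0542400.

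A linear model (limma) was fitted over all 30251 transcripts that reached an FPKM of 1 in 2 or more libraries. At an adjusted p under 0.05 together with a 2-fold change it called 8 of the 347 tested transcripts of the segment, 2.31%, beside 0.555% of all tested transcripts and 0.893% of those of the rest of chromosome 7. The model uses the contrast by which the segment was chosen, so its calls only describe. The 2 higher ones, beside 0.251% of all transcripts, were Os07t0511400-01 and Os07t0542400-01. The 6 lower ones, beside 0.304%, included Os07t0492100-01, Os07t0492300-01, Os07t0543100-00, Os07t0543500-00 and Os07t0543800-01. Of the genes on in 1 group only, Os07g0541900, Os07g0543300 and Os07g0549100 were not called. The number of calls depended on single libraries: limma called 0 in the segment without the first or without the second NT library, 2 without the first and 16 without the second OsNAC14OX library, and an unadjusted p under 0.05 with the same fold gave 17 with all 4. A fold of at least 2 without any test was reached by 21 transcripts of the segment, 6.05%, 10 higher and 11 lower, beside 2.58% of all and 3.05% of the rest of the chromosome.

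By description, the largest named group of the segment was that of 33 genes matched by the word kinase, 21 of them past 20.94 Mb. The word also matches genes that are not protein kinases, such as Os07g0492000 (nucleoside diphosphate kinase I) and Os07g0481000 (similar to a pollen-specific kinase partner protein). Of these 21, 14 were on in all 4 libraries, with gene means between 0.0374 and 23.3 FPKM. Of the 26 kinase genes tested, limma called 1 higher (Os07g0542400) and 0 lower, beside 0.251% higher and 0.304% lower over all tested transcripts, with a median log2 fold change of 0.04, against 0.003 over all tested transcripts. Os07g0551300, another gene similar to KI domain interacting kinase 1, had 28.2 and 20.0 FPKM in OsNAC14OX and 22.6 and 22.5 FPKM in NT, and Os07g0541500, with the same description, had 2.30 and 2.24 FPKM in OsNAC14OX and 2.05 and 2.21 FPKM in NT. The groups overlapped in the first and lay close together in the second. Os07g0541800, of this description too and nearer to Os07g0541900, was low in both groups, with 0.392 and 0.351 FPKM in OsNAC14OX and 0.494 and 0.421 FPKM in NT. Among the abundant members, Os07g0495100, similar to a regulatory subunit of protein kinase CK2, had 82.2 and 81.2 FPKM in OsNAC14OX and 82.3 and 81.9 FPKM in NT.

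The shares of 0.251% called higher and 0.304% called lower over all transcripts stand beside the counts of the other groups too, and in groups this small a single call exceeds them. Of 17 tested genes for glycosyl transferases and hydrolases, 0 were called higher and 1, the beta-amylase Os07g0543100, was called lower, with a median of -0.02. The most abundant, the family 17 hydrolase Os07g0539100, had 60.1 and 72.3 FPKM in OsNAC14OX and 67.8 and 70.6 FPKM in NT. Of 15 tested genes matched as DNA and chromatin, 1, the helicase Os07g0492100, was called lower. Histone H4 (Os07g0549900) of this group had 84.9 and 75.7 FPKM in OsNAC14OX and 64.2 and 67.7 FPKM in NT. Of the 17 members of this group, 8 matched only through the word cDNA and carry no stated link to chromatin. Of the 98 tested genes with a transcript described as hypothetical, unknown or non-protein coding, 1 was called higher and 2 lower, with a median of 0.04. Their most abundant member, Os07g0545400, is a histone H2A gene by the description of its longest transcript, and had 236 and 263 FPKM in OsNAC14OX and 232 and 260 FPKM in NT. The conserved hypothetical gene Os07g0498300, next in level, had 135.5 and 141.6 FPKM in OsNAC14OX and 151 and 168 FPKM in NT, so that the groups overlapped in the first of these genes and not in the second.

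No member was called by limma among the 3 photosynthesis genes tested (median log2 fold change 0.22) or the 7 ubiquitin and F-box genes (-0.04). The same held for the 7 transcription factor genes (0.04), the 5 disease resistance genes (0.16) and the 2 tested genes matched by the word P450 (-0.03). The chloroplast ATP synthase gamma chain Os07g0513000 had 268 and 296 FPKM in OsNAC14OX and 270 and 240 FPKM in NT. The NB-ARC gene Os07g0481400, of the class of intracellular immune receptors, had 10.01 and 7.80 FPKM in OsNAC14OX and 8.02 and 8.04 FPKM in NT. In both genes the difference lay within the spread of the libraries. The RING zinc finger genes Os07g0484300, Os07g0479100 and Os07g0511500 were counted both as ubiquitin-related and as transcription factor, so the transcription factor list is partly one of RING genes. Os07g0484300 had 50.0 and 46.6 FPKM in OsNAC14OX and 48.9 and 47.1 FPKM in NT. A second RING gene, Os07g0479100, had 19.1 and 21.1 FPKM in OsNAC14OX and 18.6 and 22.8 FPKM in NT. In both the groups overlapped, as they did in Os07g0501900, similar to a zinc finger protein, with 47.6 and 50.8 FPKM in OsNAC14OX and 48.4 and 47.6 FPKM in NT. The leucine-rich repeat gene Os07g0498400 had 9.27 and 7.70 FPKM in OsNAC14OX and 8.42 and 9.01 FPKM in NT. Of the genes matched by P450, Os07g0518500 had 21.4 and 27.1 FPKM in OsNAC14OX and 24.7 and 23.3 FPKM in NT. Os07g0518100 had 1.80 and 2.90 FPKM in OsNAC14OX and 2.92 and 3.02 FPKM in NT. Os07g0517900, Os07g0519300, Os07g0519600 and Os07g0520100 share with Os07g0518500 the description as taxane 10-beta-hydroxylase but lack that word, and were outside the list. Each was lower in OsNAC14OX without overlap (log2 fold changes of -0.21, -0.33, -0.51 and -0.44), and Os07g0519100, too low for a fit, was lower too. The members of the P450 list too low for a fit went the other way. Os07g0482900 had 0.521 and 0.716 FPKM in OsNAC14OX and 0.322 and 0.140 FPKM in NT. Os07g0520300 had 0.505 and 0.911 FPKM in OsNAC14OX and 0.362 and 0.472 FPKM in NT. Groups did not overlap in 151 of 291 genes of the segment.

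The most abundant genes of the segment differed little between groups. Os07g0529600, similar to pathogen-induced defense-responsive protein 8, had 4177 and 4959 FPKM in OsNAC14OX and 4094 and 3926 FPKM in NT. Os07g0529800, for a homologue of the translation initiation factor SUI1, had 1966 and 1903 FPKM in OsNAC14OX and 1975 and 2050 FPKM in NT, and the C2 domain gene Os07g0500300 had 448 and 541 FPKM in OsNAC14OX and 451 and 465 FPKM in NT. In such bulk leaf RNA, fewer cells that express a gene and less of its RNA per cell cannot be told apart. Over the 291 genes of the segment that reached an FPKM of 1 in 2 or more libraries, the median size of the log2 fold change between groups was 0.15. The median difference between replicates was 0.15 for OsNAC14OX and 0.09 for NT. Over all chromosomes the median sizes were 0.13 between groups and 0.16 and 0.10 between replicates. A change between groups compares means of 2 libraries and a replicate difference single libraries, so their sizes cannot be compared directly.

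Some genes of the segment differed widely between replicates of a group. Os07g0545800, for a homologue of a chitin-inducible gibberellin-responsive protein, had 131.8 and 17.3 FPKM in OsNAC14OX and 45.2 and 46.5 FPKM in NT, so that NT lay between the OsNAC14OX libraries. The isocitrate lyase homologue Os07g0529000, named for an enzyme of the glyoxylate cycle, had 7.28 and 2.47 FPKM in OsNAC14OX and 1.10 and 1.32 FPKM in NT. The overlapping genes Os07g0551400 and Os07g0551501, which share 3485 bases, stood apart in the second NT library only. Os07g0551501 had 27.6 and 29.3 FPKM in OsNAC14OX and 27.1 and 3.00 FPKM in NT, whereas the 2 genes together had 32.2 and 34.2 FPKM in OsNAC14OX and 32.4 and 32.8 FPKM in NT. The overlapping hypothetical genes Os07g0546100 and Os07g0546150 showed the same form in that library, with 18.7 and 18.3 FPKM in OsNAC14OX and 17.2 and 4.79 FPKM in NT for Os07g0546150 and 3.46 and 4.07 FPKM in OsNAC14OX and 3.06 and 26.2 FPKM in NT for Os07g0546100. On the scale of FPKM + 1, changes of 2-fold or more between replicates were seen in 3 of the 291 genes for OsNAC14OX and in 6 for NT. In FPKM itself more genes differed this much. Among them was Os07g0490100, with 5.95 and 2.54 FPKM in OsNAC14OX.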

How the data were processed

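Leaf RNA of 2 OsNAC14OX and 2 NT samples was analysed. The authors trimmed the reads, removed those of low quality and used TopHat for alignment against IRGSP-1.0. The sources used here do not name the program that made the FPKM. The authors deposited FPKM per transcript and log2(FPKM + 1) values after quantile normalization. The deposited table also holds the authors' own comparison (fold changes and p-values), which was not used, and 4 value columns of no sample of the series. The members and gene lists were chosen with earlier results of these data known.

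FPKM were summed per gene for counts of genes on in 1 group only (under 0.5 in both libraries of a group, at least 1 in both of the other). Deposited log2 values were fitted with limma 3.58.1 in R 4.3.3 (eBayes with a trend, two-sided, Benjamini-Hochberg) over 30251 transcripts that reached an FPKM of 1 in 2 or more libraries, and called at an adjusted p under 0.05 with a 2-fold change or more. No count model was used, since FPKM are not counts. Standard errors come from this fit or, where a gene sum is named, from the same fit on log2(FPKM + 1) of summed values. With 2 libraries against 2, an exact two-sided permutation test cannot go below p = 0.333. Reads per library were estimated from the smallest steps of FPKM times length in single-transcript genes of at least 600 bases. Such numbers are estimates.

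Named are all genes of the segment on in 1 group only or with a called transcript, the 3 genes just inside and the 3 just outside the thresholds, up to 2 of the most abundant members of each list, the 5 most abundant genes, and neighbours of genes on in 1 group only. Os07g0542400 to Os07g0543000 as a run, the neighbours of Os07g0511400, Os07g0495900, Os07g0541500, Os07g0541800, Os07g0551300, Os07g0545800, Os07g0529000 and the overlapping pairs were chosen after their values were seen. The result of 1 gene with a called transcript is counted but not reported here. The lists are those genes of the segment with a transcript whose deposited description holds a word of the list. Summaries used Python 3.11.15, pandas 2.3.3, numpy 2.4.6, scipy 1.17.1 and matplotlib 3.10.9. The fit was tested on simulated data. The alternatives were other thresholds, single transcripts, a wider segment, other pseudocounts and filters, no quantile normalization, no trend, the replicate block and leaving out each library. The reference table of gene names covers another assembly and shares no IDs with the segment, and no sequences were used.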

Additional observations from a re-analysis of the deposited data

How the results depend on the processing

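The count of 6 genes on in 1 group only changed with the thresholds. It was 2 with off under 0.1 (Os07g0543500 and Os07g0543800), 3 with on at least 2 (Os07g0492300, Os07g0543300 and Os07g0543800), 0 with off under 1 and on at least 5, and 10 when a gene was counted for any of its transcripts. In the rest of chromosome 7 the count of 11 was 4, 6, 4 and 16 under the same changes. With 1 library left out it was 6 to 9 in the segment and 13 to 24 in the rest of the chromosome, 24 without the second OsNAC14OX library, and a segment from 16 to 23 Mb kept the count at 6.

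The 8 limma calls of the segment became 4 without a filter on FPKM, 3 with an FPKM of at least 5, and 17 at an unadjusted p under 0.05. With 1 library left out there were 0 to 16, the lone library of a group being taken to vary like the other group. The 13 named transcripts that were called or on in 1 group only kept their direction under every alternative run, except when FPKM were summed per gene: the log2 fold change was then 1.13 for Os07g0542400, whose second transcript was lower in OsNAC14OX. The cause was not tested.

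Same-numbered libraries showed no shared deviation: the correlation of their deviations from the group means was 0.0037 over 30251 transcripts. This value cannot show whether they were grown or prepared together. With the replicate number as a block limma called 0 transcripts of the segment, a fit with 1 residual degree of freedom. Few reads stand behind the low levels, so that off means low at this depth and not absent.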
